A study of Mus musculus with 6 samples.

Results

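The 8 genes described here belong to arginine metabolism and were taken by name from the 20649 genes of a deposited single-cell count matrix. They encode an enzyme that consumes arginine (Nos2), the enzyme that makes a cofactor of Nos2 (Gch1), the enzymes that rebuild arginine from citrulline (Ass1, Asl), its transporters (Slc7a2, Slc7a1) and a pair of polyamine enzymes (Odc1, Sat1). All 8 had counts in the matrix. The cells came from subcutaneous tumors of CT26, a mouse colon carcinoma line, in the right flank of BALB/c mice that had received 500000 tumor cells. The labels list 3 tumors given exoASO-STAT6, exosomes loaded with an antisense oligonucleotide against Stat6, and 3 given exoASO-Scramble, the same carrier with a scrambled oligonucleotide. Each tumor received 3 intratumoral injections and was collected 24 hours after the last, and cells positive for CD45, the surface protein of leukocytes, were enriched. Per the methods of the study the mice were female and 6 to 8 weeks old when obtained.

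Macrophages take up arginine and use it in several ways. Ornithine made from it feeds the polyamines that dividing cells need. The inducible nitric oxide synthase Nos2 turns it into nitric oxide and citrulline, with tetrahydrobiopterin as a cofactor, and citrulline can be returned to arginine by Ass1 and Asl. Nos2 is a common marker of macrophages exposed to interferon gamma and bacterial products, and its output depends on arginine brought in by transporters of the plasma membrane.

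The matrix held raw counts of unique molecular identifiers (UMIs, each 1 captured transcript) for 9235 barcodes, each barcode being 1 droplet. Barcodes ended in 1 of 6 suffixes, from 3 to 8, which were taken as 6 libraries. No label pairs a suffix with a tumor, so the treatment of every library is unknown, the treatments are not compared, and no p-value is given. The libraries held 867 to 2017 barcodes and 11492757 to 33902084 UMIs, and 16 barcode sequences occurred in more than 1 library. Macrophage barcodes were those with at least 3 UMIs of Csf1r and Adgre1 together and none of Cd3e, Ncr1 or Cd79a, which T, NK and B cells carry. There were 4650 of them, 50.4% of all, with 459, 774, 829, 685, 815 and 1088 in suffixes 3 to 8. Without the gate genes Csf1r and Adgre1, 7 monocyte and macrophage markers summed to 11586 UMIs per 1000000 UMIs of the same barcodes (CPM). They summed to 602 CPM in the 371 barcodes of NK or B cells with no Csf1r or Adgre1 UMI, which served as background. NK and B cells can express a gene themselves, so this background is not a noise floor for every gene. The macrophage gate also held 8 neutrophil markers at 1000.3 CPM in sum, ranging from 294 to 1847 CPM over the libraries, and their part in the contrasts between states was not tested. Another 1635 barcodes met the macrophage count but carried a lymphocyte UMI and were left out. No doublet caller was run. Suffix 6 stood apart in its macrophages. With barcodes thinned to a common depth of 3000 UMIs, 55.4% of them had an Rsad2 UMI, compared with 13.6% in the library with the fewest. Results that rest on suffix 6 are given with values by library or without it.

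Nos2 (chr11:78920787-78960254, plus strand, GENCODE on GRCm38) varied most between libraries. It was at 83.4 CPM over all libraries in macrophage barcodes (95% exact Poisson interval 81.3 to 85.5), and at 38.0, 50.2, 9.67, 186, 129 and 66.1 CPM in suffixes 3 to 8. Suffix 6 was the highest and suffix 5 the lowest, near the 7.14 CPM of the NK or B background of all libraries together. Intervals here cover counting error only, and 3′ UMI counts do not scale with transcript length. Gch1, the first enzyme of tetrahydrobiopterin synthesis, was at 120.4 CPM and ranged only from 88.8 in suffix 5 to 138 in suffix 8. Ass1, which joins citrulline to aspartate, was at 54.3 CPM (52.6 to 56.0). Its values in suffixes 3 to 8 were 40.8, 51.1, 30.1, 81.2, 65.7 and 49.0 CPM. Suffix 6 was the highest and suffix 5 the lowest library for Ass1, as for Nos2. Asl, which completes the return to arginine, was at 35.1 CPM and nearly level, from 30.3 to 37.2 CPM. Its share of barcodes with a UMI, 10.6% (exact binomial interval 9.74 to 11.5%), overlapped that of NK or B barcodes, 8.55% (5.66 to 12.3%). This compares cell classes and does not place Asl in macrophages at noise. Its level was above the 24.5 CPM of the background (19.4 to 30.5), which ranged from 21.4 to 36.0 CPM over the libraries. Background for Ass1 was 4.34 CPM.

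Slc7a2 (chr8:40862396-40922308, plus strand) encodes CAT2, the arginine transporter known to be induced in activated macrophages, and Slc7a1 encodes CAT1, the broadly expressed one. Slc7a2 was at 71.1 CPM over all libraries, with 45.8, 42.5, 74.7, 161, 66.4 and 46.8 CPM in suffixes 3 to 8. Suffix 6 lay above the rest, and the background was 4.96 CPM. Slc7a1 was the least abundant member at 24.6 CPM, lowest in suffix 6 at 19.5 and highest in suffix 5 at 33.9 CPM. Its 40.3 CPM in NK or B barcodes was above its macrophage level, so they set no noise floor for Slc7a1. Odc1, which makes putrescine from ornithine, was at 108 CPM with a range of 95.01 to 132 CPM. It was below the 155 CPM of NK or B barcodes. Sat1, which acetylates spermidine and spermine for breakdown or export, was the most abundant of the 8 transcripts at 670 CPM and ranged from 557 to 710 CPM. Unlike Slc7a2, Sat1 was lowest in suffix 6.

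**Figure D1:**
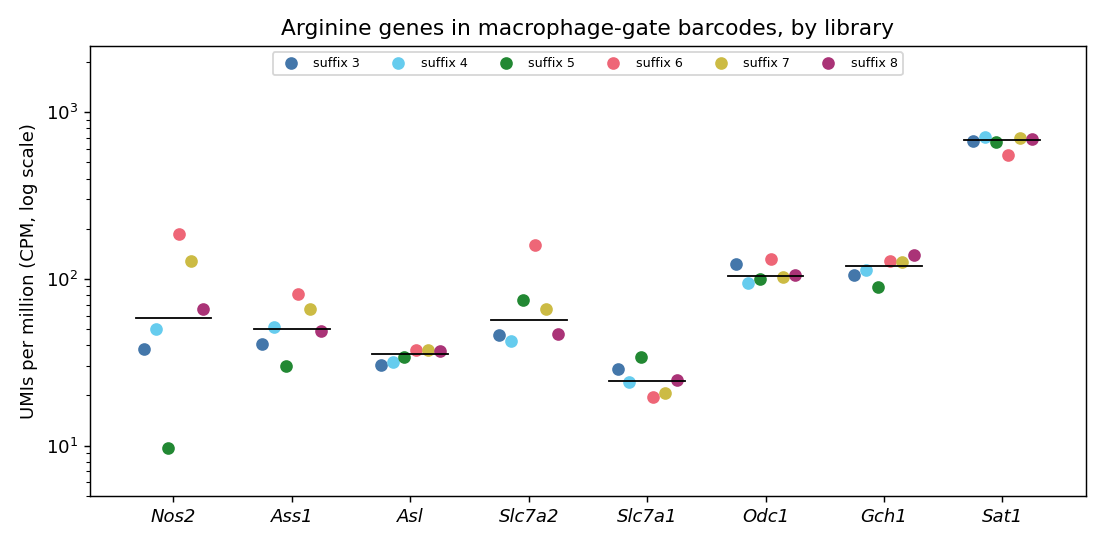
Level of each of the 8 genes in macrophage barcodes, in CPM on a log axis, with 1 point per library (barcode suffix) and a line at the median of the 6 libraries. Slc7a2 is highest and Sat1 lowest in suffix 6, and Nos2 has the widest range, from 9.67 CPM in suffix 5 to 186 CPM in suffix 6.

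The members also differed in the share of macrophage barcodes in which they were detected. Barcodes were thinned at random to 3000 UMIs each, which left out 45 shallower ones and 4605 for use. At this depth 12.6% had a Nos2 UMI (exact binomial interval 11.6 to 13.5%), and 22.8% did before thinning. The 10% of barcodes with the most Nos2 UMIs held 91.2% of all of them, and 1 barcode had 22. Nos2 was detected in 6.39, 9.73, 1.85, 24.4, 17.9 and 13.7% of the barcodes of suffixes 3 to 8. Of the 304 NK or B barcodes of that depth in all libraries, 1.97% had a Nos2 UMI (0.728 to 4.25%), close to the share of suffix 5. The NK or B barcodes of suffix 5 itself had 0 Nos2 UMIs, which allows a level of up to 21.6 CPM (3 counts of the total). The 9.67 CPM of suffix 5 macrophages lay below this limit. With only 16 NK or B barcodes of that depth in suffix 5, the comparison could not decide whether it was above background. Suffix 5 barcodes with a Flt3 UMI outside the macrophage gate also had 0, which allows up to 3.37 CPM, below the macrophage level. For Sat1, 77.6% of barcodes had a UMI and the top 10% held 32.3% of the UMIs. The top 10% held 94.4% for Asl and 100% for Slc7a1, although no barcode had more than 3 UMIs of either. Where few barcodes have a UMI this share is high by construction. It therefore does not show that Nos2 was spread less evenly than the more abundant Sat1. Slc7a2 was detected in 13.9% of barcodes, Ass1 in 13.4%, Gch1 in 28.3%, Odc1 in 23.7% and Slc7a1 in 6.43%. In NK or B barcodes these shares were 1.32, 1.97, 8.55, 34.2 and 12.5%, so Odc1 and Slc7a1 were detected more often there. The median raw depth was 13382 UMIs in macrophage and 6600 in NK or B barcodes.

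Slc7a2 was detected more often in barcodes with Nos2 than in those without it. Among the 7 other members it was singled out after its values were seen. Nos2 was detected in 578 of the 4605 barcodes, with 29, 75, 15, 165, 145 and 149 in suffixes 3 to 8. An Slc7a2 UMI was present in 33.4% of these (exact binomial interval 29.6 to 37.4%) and in 11.1% of the 4027 Nos2-negative ones (10.2 to 12.2%). Conversely, 30.1% of barcodes with Slc7a2 and 9.71% of those without it had a Nos2 UMI. In suffixes 3 to 8, the Slc7a2 share among Nos2-positive barcodes was 34.5, 18.7, 53.3, 38.8, 35.9 and 30.2%, and that among Nos2-negative barcodes was 9.18, 9.91, 13.8, 19.7, 9.20 and 7.38%. The first was the higher in 6 of 6 libraries, but in suffix 4 the intervals of both shares overlapped. The pooled difference therefore did not come from suffix 6 alone, where both genes were abundant. In the NK or B barcodes 1.32% had an Slc7a2 UMI. Leaving out macrophage barcodes with at least 5 S100a9 UMIs or a Flt3 UMI gave 12.3% with Nos2, and 33.7% and 10.999% with Slc7a2 among Nos2-positive and Nos2-negative ones.

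Over all libraries together, detection of Slc7a2 rose with the Nos2 count. At the common depth it was found in 11.1% of barcodes with 0 Nos2 UMIs, 27.0% of 307 with 1 (22.1 to 32.4%), 37.7% of 167 with 2 to 3 (30.4 to 45.5%) and 45.2% of 104 with 4 or more (35.4 to 55.3%). Neighbouring bins above 0 had intervals that overlapped. Suffix 6 supplied 45 of the 104 barcodes in the top bin but 512 of the 4027 without Nos2. Within it Slc7a2 was found in 19.7, 38.6, 36.0 and 42.2%, with no steady order above 1 Nos2 UMI, whereas suffixes 7 and 8 kept the pooled order. Pooled shares of Ass1 were 12.02, 19.5, 22.2 and 33.7%, and those of Gch1 27.1, 33.9, 37.7 and 42.3%. Both orders held in suffix 8 but not in suffix 6 or 7. In suffix 6, Ass1 was found in 14.8, 24.3, 22.0 and 33.3% and Gch1 in 28.3, 38.6, 30.0 and 35.6%. Asl had no such order in the pooled shares, with 10.6, 9.77, 11.98 and 11.5%. The median raw depth of the bins was 13569, 13558, 12508 and 10281 UMIs, so the bin with the most Nos2 was the shallowest before thinning.

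**Figure D2:**
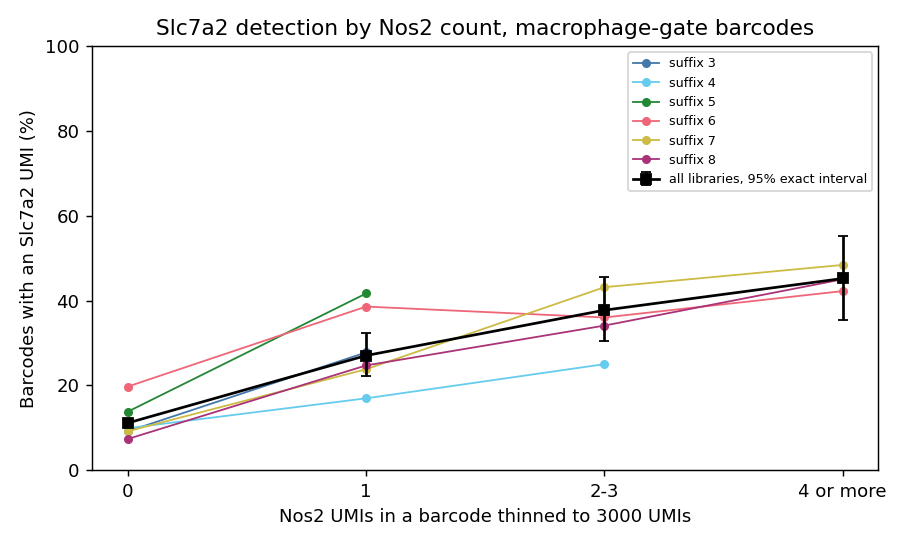
Share of macrophage barcodes with an Slc7a2 UMI (percent) by the number of Nos2 UMIs in the barcode, after thinning to 3000 UMIs. The black line joins the values over all libraries with 95% exact binomial intervals, from 11.1% to 45.2%, and the colored lines show each library where a bin held at least 10 barcodes.

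Within each state defined by a marker gene Slc7a2 kept this relation to Nos2. Among C1qa-positive barcodes, Slc7a2 was detected in 27.3% of those with Nos2 (22.3 to 32.7%) and 8.64% of those without (7.62 to 9.74%). Among C1qa-negative barcodes the shares were 39.9% (34.1 to 45.8%) and 16.9% (14.8 to 19.1%). Rsad2-positive barcodes had 37.5% and 13.6%, and Rsad2-negative ones 29.1% and 10.3%. For Mmp12-positive barcodes they were 38.8% and 17.9%, and for Ly6c2-positive ones 31.7% and 12.5%. The share was higher with Nos2 in 6 of the 6 libraries in 7 of the 8 positive and negative states, and in 5 of them in Ly6c2-positive barcodes.

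The levels of the other members were then set side by side in Nos2-positive and Nos2-negative barcodes, whose median raw depths were 12543 and 13569 UMIs. Slc7a2 differed most. It was at 222 CPM with Nos2 (212 to 232) and 50.3 without (48.6 to 52.1). In suffixes 3 to 8 it was at 151, 85.2, 695, 303, 217 and 194 CPM in the positive and at 39.2, 37.2, 63.9, 120.2, 36.3 and 27.5 CPM in the negative barcodes. The ratio was 4.42 (exact interval 4.17 to 4.68), and it was above 1 in 6 of 6 libraries, from 2.29 to 10.9. Only 15 barcodes of suffix 5 had Nos2, so its high value rests on few cells.

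Ass1 and Gch1 were also higher with Nos2. Ass1 was at 97.8 CPM with Nos2 and 48.4 without, a ratio of 2.02 (1.87 to 2.18) that was above 1 in 6 of 6 libraries and ranged from 1.22 to 3.06. In suffixes 3 to 8 Ass1 was at 49.3, 74.7, 89.2, 121, 92.5 and 99.2 CPM in the positive and at 40.3, 48.6, 29.2, 69.95, 60.4 and 42.5 CPM in the negative barcodes. Gch1 was at 171 against 113 CPM, a ratio of 1.51 (1.43 to 1.60) with a range of 1.08 to 1.60 over the libraries. The order was opposite for Slc7a1. It was at 14.5 CPM with Nos2 (12.1 to 17.3) and 26.1 without, a ratio of 0.558 (0.462 to 0.669) that was below 1 in 6 of 6 libraries. The 2 cationic amino acid transporters therefore lay on opposite sides. Asl, at 36.4 against 35.01 CPM, had an interval of the ratio that included 1. Odc1, at 99.0 against 109.5 CPM, was lower in 4 of 6 libraries, but its pooled ratio of 0.904 became 1.06 with equal library weight. Sat1 had a ratio of 1.04. Markers of the states moved with Nos2 too over all libraries together. Mmp12 was 2.73-fold higher (2.09 to 4.93 over the libraries) and C1qa was at a ratio of 0.592 (0.461 to 0.945). Rsad2 was 3.46-fold higher, but this pooled ratio lay above that of every single library. By library the Rsad2 ratio ran from 0.918 to 3.39 and was above 1 in 5 of 6, the exception being suffix 5. Ly6c2 had a pooled ratio of 1.94, also above that of every single library (0.671 to 1.69), and 1.37 with equal library weight. It too was above 1 in 5 of 6, the exception being suffix 5. The part of these markers in the ratios of the members was not tested.

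**Figure D3:**
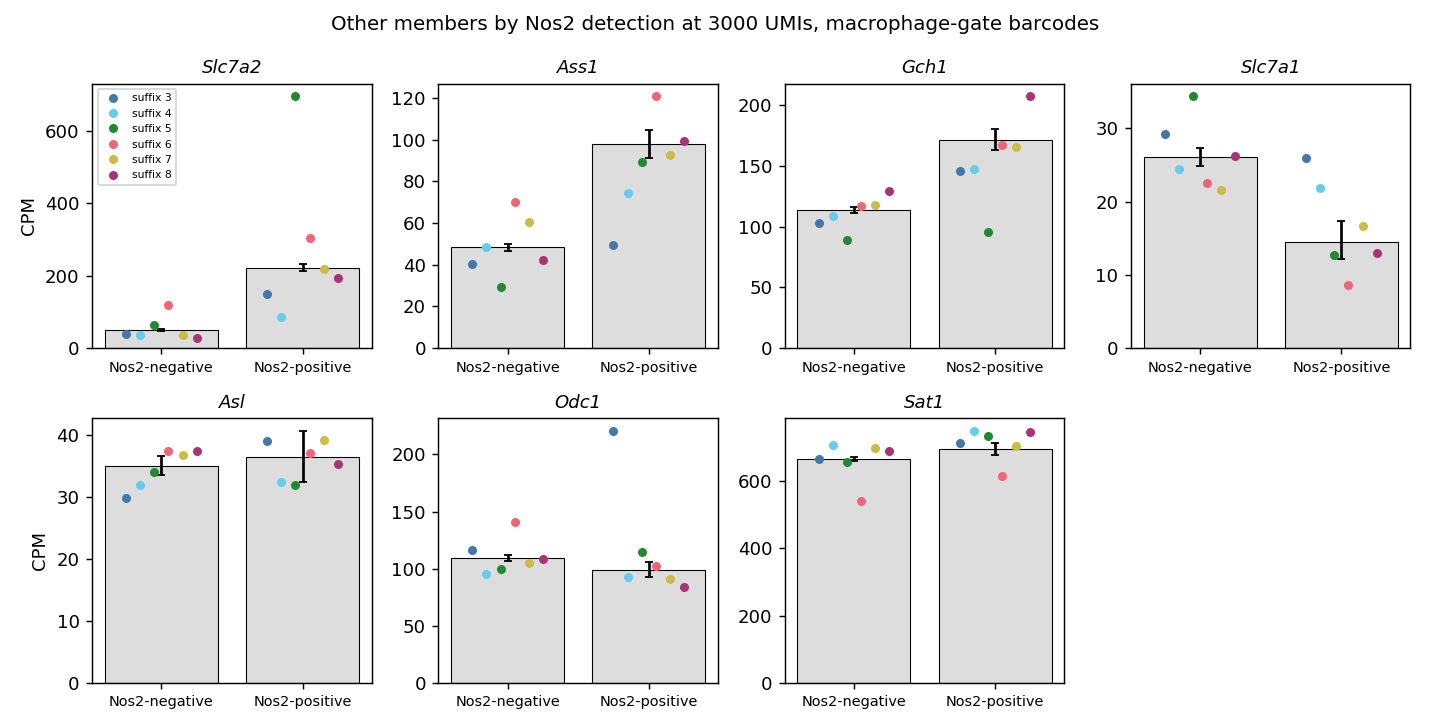
Level of 7 members (CPM) in macrophage barcodes without and with a Nos2 UMI at 3000 UMIs. Bars give all libraries together with 95% exact Poisson intervals and points give single libraries, of which suffixes 3 and 5 had only 29 and 15 barcodes with Nos2. Slc7a2 is at 222 CPM with Nos2 and 50.3 CPM without, Ass1 and Gch1 are higher and Slc7a1 is lower with Nos2.

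Because Ass1 and Gch1 were both higher in the barcodes with Nos2, the 250 bases before their start sites are shown (RefSeq, GRCm38.p6). Ass1 lies on chromosome 2 and this stretch is chr2:31470020-31470269 on the plus strand. Gch1 lies on chromosome 14 and the stretch is chr14:47189414-47189663 on the minus strand. Capitals mark matches, on either strand, to letters that transcription factors active in macrophages are known to bind, which were the STAT patterns TTCNNNNGAA and TTCNNNGAA, the interferon pattern GAAANNGAAA and the hypoxia pattern in its forms ACGTG and GCGTG.
Ass1: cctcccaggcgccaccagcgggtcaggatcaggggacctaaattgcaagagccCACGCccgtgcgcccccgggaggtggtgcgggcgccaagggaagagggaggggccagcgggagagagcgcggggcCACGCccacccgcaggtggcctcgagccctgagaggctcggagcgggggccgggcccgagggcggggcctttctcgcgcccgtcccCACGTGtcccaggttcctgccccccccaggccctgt
Gch1: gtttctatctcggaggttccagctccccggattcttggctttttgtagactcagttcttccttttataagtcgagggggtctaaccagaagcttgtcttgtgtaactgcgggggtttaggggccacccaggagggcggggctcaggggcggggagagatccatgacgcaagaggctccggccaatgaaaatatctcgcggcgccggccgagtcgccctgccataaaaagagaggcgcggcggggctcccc
In Ass1, ACGTG matched on both strands in an overlap at bases 215 to 220, and GCGTG matched on the minus strand at bases 54 to 58 and 129 to 133. Gch1 had no match to any of the 5. Windows of 300 bases, from 250 before to 50 after the start, held TTCNNNNGAA in 6.95%, TTCNNNGAA in 8.30%, GAAANNGAAA in 3.44%, ACGTG in 19.6% and GCGTG in 32.4% of 32851 promoters. A match describes letters only. Of the other members with promoter sequences, scanned over the 300 bases, Odc1 had GCGTG matches and Sat1 had none. An Slc7a1 promoter had a TTCNNNGAA match before the start and a GCGTG match after it, outside the 250 bases. Another Slc7a1 promoter had no match. Matches thus also occurred in genes that were not higher with Nos2. Promoters of Nos2, Asl and Slc7a2 were not used here.

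The macrophage barcodes were next divided by 4 state genes, each scored by at least 1 UMI at the common depth. C1qa, a complement component, marks resident-type and mature tumor macrophages, and Ly6c2 marks monocytes newly arrived from blood. A gene was called higher or lower where the CPM of all libraries together differed by at least 2-fold and the direction was the same in every library with at least 20 barcodes on each side. No replicates of known treatment exist, so a call is a description of these libraries. For C1qa, 3098 barcodes were positive and 1507 negative, with median raw depths of 15856 and 9998 UMIs. None of the 8 members was called higher, against 6.17% of all 11984 genes, and 2 were called lower, against 2.22% of all genes. Their median ratio was 0.807, compared with 1.08 over all genes.

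Slc7a2 was lower in C1qa-positive barcodes, at 45.6 against 152 CPM, a ratio of 0.299 that ranged from 0.250 to 0.841 over the libraries. Ass1 was at 41.0 against 97.2 CPM, a ratio of 0.422 (0.330 to 0.606 over libraries). Both genes stayed at least 2-fold lower when each library had equal weight. Nos2, at 54.3 against 177 CPM, had a ratio of 0.307 but was higher in the positive barcodes of suffix 4. It was called lower without suffix 4, at 0.292. Gch1 was lower in 6 of 6 libraries at a smaller ratio of 0.660. Sat1 and Slc7a1 were modestly higher in C1qa-positive barcodes, with ratios of 1.196 and 1.23, both in 6 of 6 libraries.

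In Ly6c2-positive barcodes (1414 against 3191 negative ones) 1 member was called higher, against 1.66% of all genes, and 0 lower, against 4.57%. It was Ass1, at 93.8 against 40.6 CPM. Its values in suffixes 3 to 8 were 67.1, 84.6, 43.0, 110.2, 108 and 89.5 CPM in positive and 36.0, 45.2, 27.5, 52.0, 49.2 and 35.7 CPM in negative barcodes. The ratio of 2.31 was 2.05 with equal library weight. Gch1 was higher in 6 of 6 libraries at a ratio of 1.35. Nos2 was higher in 4 of 6 libraries, with a pooled ratio of 2.33 and an equal-weight ratio of 1.58. Odc1 was lower in 6 of 6 libraries at a ratio of 0.875. Slc7a2 was higher in 5 of 6 libraries, and its pooled ratio of 1.59 became 1.16 with equal weight.

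Rsad2 is induced by interferons and encodes viperin. Of 1276 Rsad2-positive barcodes 375 came from suffix 6. Slc7a2 alone was called higher in them, 1 of 8 members against 0.901% of all genes, at 117 against 53.8 CPM. Over suffixes 3 to 8 it was at 48.9, 54.2, 107, 194, 115 and 74.7 CPM in the positive and 45.1, 39.4, 69.8, 122, 49.9 and 35.04 CPM in the negative barcodes. It was higher in 6 of 6 libraries, and its ratio of 2.17 ranged from 1.08 to 2.31 over the libraries and was 1.64 with equal library weight and 1.77 without suffix 6, both below the limit for a call. Nos2 had the largest ratio, at 160 against 54.8 CPM. In suffixes 3 to 8 it was at 35.3, 81.7, 28.9, 235, 232 and 123 CPM in the positive and 38.6, 43.3, 6.83, 130, 93.8 and 42.2 CPM in the negative barcodes. It was thus higher in 5 of 6 libraries, the exception being suffix 3, with a pooled ratio of 2.93 and an equal-weight ratio of 2.08. Gch1 and Sat1 were higher in 6 of 6 libraries, with ratios of 1.38 and 1.11.

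Mmp12 encodes macrophage elastase. No member reached the pooled limit in the 746 Mmp12-positive barcodes, against 0.776% of all genes called higher. Nos2 and Slc7a2 came close, with ratios of 1.89 and 1.85, and both were higher in 6 of 6 libraries. Over suffixes 3 to 8 Slc7a2 was at 79.6, 92.0, 150.2, 256, 121 and 81.0 CPM in the positive and 36.0, 29.7, 60.9, 149.8, 54.8 and 38.2 CPM in the negative barcodes. Nos2 was at 114, 118, 19.0, 249, 242 and 105 CPM in the positive and 16.1, 33.4, 8.03, 179, 104 and 56.5 CPM in the negative barcodes. Both genes were already abundant in the Mmp12-negative barcodes of suffix 6. Without suffix 6, an alternative run for each library, 2 members were called higher, against 1.03% of all genes, namely Nos2 at 2.51 and Slc7a2 at 2.30. With Mmp12-positive barcodes taken as those with at least 3 UMIs, the same 2 genes were called, against 1.0% of all genes, at ratios of 2.16 and 2.05. Ass1 and Odc1 had ratios of 1.27 and 1.201, both above 1 in 6 of 6 libraries.

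Nos2 and Slc7a2 were thus higher with both Rsad2 and Mmp12 over all libraries. Divided by the 2 state genes, 189 barcodes had Rsad2 and Mmp12, 1087 had Rsad2 alone, 557 had Mmp12 alone and 2772 had neither. Nos2 was detected at the common depth in 29.6% (23.2 to 36.7%), 21.8% (19.4 to 24.4%), 16.3% (13.4 to 19.7%) and 6.999% (6.08 to 8.01%) of them. Slc7a2 was detected in 27.0% (20.8 to 33.9%), 17.8% (15.5 to 20.2%), 20.3% (17.0 to 23.9%) and 10.3% (9.18 to 11.5%). The library median of Nos2 was 182 CPM with both, 79.7 with Rsad2 alone, 112 with Mmp12 alone and 31.7 with neither. For Slc7a2 these medians were 161, 77.3, 87.3 and 37.7 CPM. Within libraries, the barcodes with both state genes had the highest level of the 4 classes in 3 of 6 for Nos2 and in 3 of 6 for Slc7a2. The barcodes with both state genes numbered only 11 in suffix 5 and 19 in suffix 3.

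**Figure D4:**
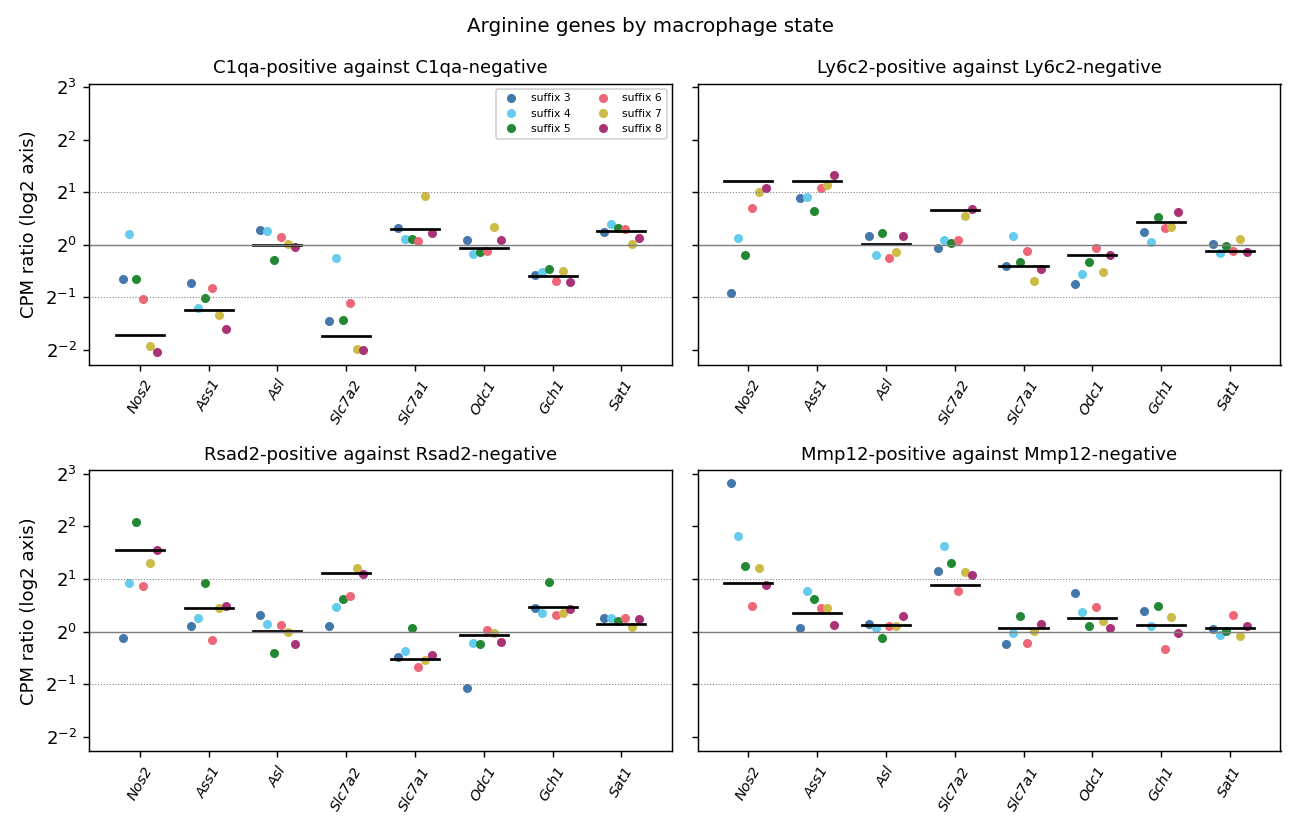
Ratio of the level (CPM) in macrophage barcodes positive for a state gene to that in negative ones, for each of the 8 members, on a log2 axis. Points are libraries, black lines the ratio of all libraries together, and dotted lines 2-fold. Slc7a2 and Ass1 lie below 1 in every library for C1qa, and Nos2 and Slc7a2 lie above 1 in every library for Mmp12.

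Levels in macrophage barcodes were also compared with those in barcodes chosen by S100a9 and by Flt3 that did not meet the macrophage gate. The S100a9 gate (at least 5 UMIs) was meant to mark neutrophils but held transcripts of macrophages too, so it is named by its rule. Apart from S100a9, its 7 neutrophil markers summed to 2209 CPM, against 534 CPM in the macrophage gate. G0s2 was at 548 against 109 CPM, Cxcr2 at 48.4 against 10.1 and Ly6g at 3.62 against 0.887. Of its 1049 barcodes, 566 were also in the macrophage gate and only 44 had no Csf1r or Adgre1 UMI. Its 7 monocyte and macrophage markers without Csf1r and Adgre1 summed to 9585 CPM, against 11586 CPM in the macrophage gate. Of the 483 barcodes outside the macrophage gate, 363 had a lymphocyte UMI and 342 (70.8%) had at least 3 Csf1r or Adgre1 UMIs, so most missed the gate only by a lymphocyte UMI. Their 9 macrophage markers summed to 9027 CPM, their 5 NK markers to 813 CPM and their 5 T markers to 540 CPM, so the set compared was largely of barcodes that carried macrophage transcripts too. Set against the 4084 macrophage barcodes outside the S100a9 gate, those 483 had none of the 8 members called, against 4.71% of all genes in either direction, and this does not compare neutrophils with macrophages. Their Nos2 level was 75.6 against 83.0 CPM and their Ass1 level 35.5 against 55.7 CPM, both lower in 5 of 5 libraries with enough barcodes. Suffix 5 had too few barcodes to count. Without suffix 6 the pooled Nos2 ratio was 1.03, although the 483 were lower in each of suffixes 3, 4, 7 and 8. At the common depth Nos2 was detected more often in the 483, in 17.9% (14.5 to 21.6%) against 12.2% (11.2 to 13.3%). This share was higher in suffixes 4, 7 and 8 and lower in suffixes 3 and 6.

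The Flt3 gate (at least 1 UMI) held 344 barcodes, of which 117 were also macrophage barcodes. Its 7 dendritic cell markers other than Flt3 summed to 822 CPM, against 55.6 CPM in macrophage barcodes, but its 7 macrophage markers were still at 6483 CPM. Of the 227 Flt3 barcodes outside the macrophage gate, 76 (33.5%) had a lymphocyte UMI, and their NK and T markers summed to 508 and 305 CPM. In these 227 barcodes 0 members were called lower than in 4533 macrophage barcodes outside the Flt3 gate, against 4.37% of all genes. Nos2 and Slc7a2 had ratios of 0.370 and 0.344 but were lower in only 5 of 6 libraries each. Over suffixes 3 to 8 Nos2 was at 26.7, 26.6, 0, 11.4, 37.7 and 75.9 CPM in the Flt3 barcodes and 34.8, 51.2, 10.2, 185, 132 and 67.2 CPM in macrophages, and suffix 8 was the exception. The 0 of suffix 5 allows up to 3.37 CPM (3 counts of the total). Slc7a2 was at 53.4, 14.9, 15.7, 22.8, 39.4 and 30.1 CPM against 47.4, 43.9, 77.6, 164, 67.6 and 47.3 CPM, and suffix 3 was the exception. Slc7a2 was called without suffix 3, at 0.304, and Nos2 without suffix 8, at 0.216, whereas without suffix 6 the ratios were 0.513 for Nos2, short of 2-fold, and 0.457 for Slc7a2. Gch1 and Sat1 were lower in 6 of 6 libraries, with ratios of 0.583 and 0.672 that did not reach the limit. Ass1 was at 59.1 against 54.4 CPM over all libraries, but its ratio ran from 0.568 to 2.32 and was above 1 in 3 of 6.

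Arranged by level over 6 classes of barcodes, all libraries together, Nos2, Asl, Gch1 and Sat1 were highest in macrophages, Slc7a2 in the S100a9 gate, Ass1 in the Flt3 gate, Slc7a1 in T and Odc1 in B barcodes. Barcodes with no lymphocyte UMI and fewer than 3 Csf1r or Adgre1 UMIs were in no class unless S100a9 or Flt3 placed them there. Their Nos2 level was higher than in any of the 6 classes, at 128, 133 and 179 CPM with 0, 1 and 2 such UMIs. The order is therefore one among these classes only. The first place of Slc7a2 and that of Ass1 each held over the macrophages in only 3 of 6 libraries. The first place of Nos2 held over the S100a9 gate in 5 of 6. Without suffix 6 the pooled ratio between the S100a9 gate and macrophages was 1.02 for Slc7a2 and 1.03 for Nos2. Within each of suffixes 3, 4, 7 and 8 Nos2 was still higher in macrophages. Suffix 5 was the exception, at 10.0 CPM in 802 macrophage and 16.2 CPM in 18 S100a9 barcodes. The pooled order of Nos2 without suffix 6 therefore does not describe most libraries. Without suffix 5 the ratio of Ass1 between the Flt3 gate and macrophages was 0.975. Most neighbours in these orders overlapped in their ranges over the libraries. The ranges of Sat1 did not overlap between the S100a9 gate (527 to 674 CPM) and the Flt3 gate (341 to 498 CPM). Slc7a1 was at 56.5 CPM in 343 T barcodes (42.5 to 74.8 over libraries), 41.2 in 336 NK barcodes (26.0 to 53.2) and 25.3 in macrophages outside the S100a9 gate (19.6 to 34.1). It was higher in T than in NK barcodes in 6 of 6 libraries, although the ranges overlapped. Odc1 was at 262 CPM in B, 161 in T and 149 in NK barcodes, but there were only 37 B barcodes. Nos2 had 0 UMIs in the B barcodes, whose median depth was 3200 UMIs, which allows up to 16.7 CPM (3 counts of the total). It was at 13.1 and 7.51 CPM in T and NK barcodes.

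**Figure D5:**
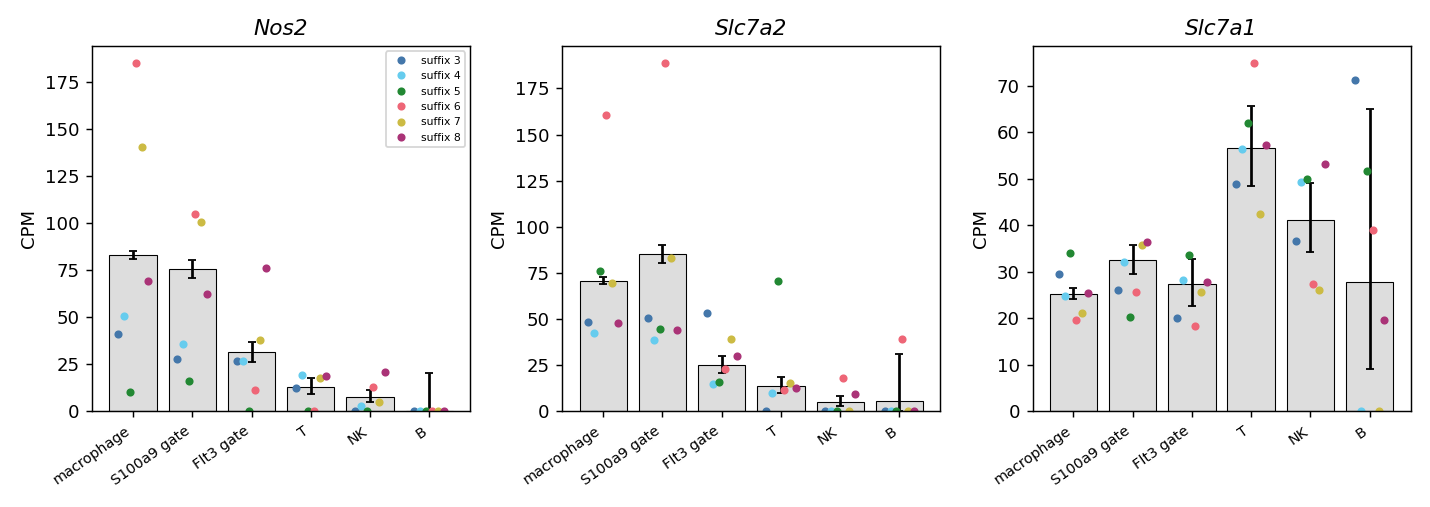
Level of Nos2, Slc7a2 and Slc7a1 (CPM) in 6 classes of barcodes that do not share a barcode between the gates and macrophages. Bars give all libraries together with 95% exact Poisson intervals and points give single libraries. Among these 6 classes, over all libraries, Nos2 is highest in macrophages (83.0 CPM) and Slc7a1 in T barcodes (56.5 CPM). Most barcodes just below the macrophage gate, where Nos2 was higher, are in no class. Without suffix 6, pooled Nos2 is slightly higher in the S100a9 gate (67.6 against 65.8 CPM), an order found within suffix 5 only. Slc7a2 is highest in the S100a9 gate (85.1 CPM) over all libraries but above macrophages in only 3 of 6.

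The levels of Nos2 and Slc7a2 also varied with the count on which the macrophage gate was set. Among barcodes without a lymphocyte UMI, Nos2 was at 128, 133, 179, 135, 154 and 145 CPM with 0, 1, 2, 3, 4 and 5 Csf1r or Adgre1 UMIs and at 69.5 CPM with 6 or more. Slc7a2 was at 105, 137, 162, 103, 148, 126 and 58.7 CPM in the same barcodes. These values pool libraries of different levels. Both genes were higher with 2 UMIs than with 3 in 6 of 6 libraries, whereas the 3205 barcodes with 6 or more had the lowest level in only 3 of 6 libraries for Nos2 and 3 of 6 for Slc7a2. The 598 barcodes with 2 UMIs lay just outside the gate and the 537 with 3 just inside. Median raw depth rose from 6572 and 7535 UMIs in these to 16293 with 6 or more.

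Other genes of arginine, creatine, tetrahydrobiopterin and polyamine metabolism were taken from a list of 46, of which 45 were in the matrix and 38 had enough UMIs for each contrast. In C1qa-positive barcodes 5 of the 38 were called higher, against 6.17% of all genes, and 1 lower, against 2.22%. Those with the largest folds were Sat2, a paralog of Sat1, at 5.50 (106 against 6 UMIs), Ckb, the brain-type creatine kinase, at 2.5002 and Prodh, proline dehydrogenase, at 2.45. The others, named after their values were seen, were Paox, a polyamine oxidase, at 2.41 and Gatm, which transfers the amidino group of arginine to glycine for creatine synthesis, at 2.34, with Smox, spermine oxidase, lower at 0.445. Gatm was abundant, at 905 against 387 CPM, and was on the C1qa side, opposite to Ass1 and Slc7a2. In Ly6c2-positive barcodes 0 were called higher and 2 of 38 lower, against 4.57% of all genes, namely Sat2 at 0.192 and Azin2, an antizyme inhibitor, at 0.398. In either direction 0 of 38 were called with Rsad2, against 1.27% of all genes, and 0 in the S100a9 gate, against 4.71%. With Mmp12, Slc6a8, the creatine transporter, was the 1 of 38 called, against 0.776% of all genes called higher, at 56.3 against 24.7 CPM (ratio 2.28). In the Flt3 gate 1 of 38 was called lower, against 4.37% of all genes, which was Slc7a7, an amino acid transporter subunit, at 0.491. The list's median ratio was 1.38 for C1qa, 0.761 for Ly6c2, 0.858 for Rsad2 and 0.864 for Mmp12, beside 1.08, 0.945, 0.941 and 0.913 over all genes.

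Genes most like Nos2 were ranked by Pearson correlation of thinned counts over the 4605 macrophage barcodes, taken within each library and averaged over the 6 libraries, among 5941 genes. Barcodes share their library and a common depth, and the values describe these cells with no test. The 5 highest were Ero1l at 0.281, Slc7a2 at 0.261, Egln3 at 0.254, Bnip3 at 0.250 and Hilpda at 0.244. Ero1l, an oxidase of the endoplasmic reticulum, ranged from 0.0937 to 0.426 over the libraries, Slc7a2 from 0.0791 to 0.373 and Egln3 from 0.0286 to 0.538. When each library was left out in turn Ero1l stayed first, whereas the lowest rank reached was 7 for Slc7a2, 20 for Egln3, 6 for Bnip3 and 8 for Hilpda. Among the other members, Ass1 ranked 140 at 0.09 and Gch1 243 at 0.06, whereas Slc7a1 was at -0.04. These are weak correlations of sparse counts. Bnip3, Egln3 and Hilpda are known to be induced by low oxygen.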

How the data were processed

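The authors deposited 1 matrix of raw UMI counts (3′ droplet libraries), not normalized. The submitters' processing notes name Cell Ranger 1.2, Seurat 3.1.5, R 4.0.1 and the build mm10, and the filter on barcodes is not given in the sources used here. Column names match no sample label, so the matrix was treated as 1 pooled sample and each of the 6 suffixes as a library of unknown treatment. Replicates of known treatment being absent, no test was run, and the planned treatment comparison was not made.

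From the counts, CPM values were computed as summed UMIs per 1000000 UMIs of the same barcodes (numpy 2.4.6, scipy 1.17.1), with exact Poisson intervals, and shares at 3000 UMIs per barcode with Clopper-Pearson intervals, both at 95%. Contrasts covered genes with at least 50 UMIs. Genes named are the 8 members described, up to 3 list genes per contrast with the largest called fold, the 5 genes most like Nos2, and the state and gate genes. Paox, Gatm and Smox and the gate markers G0s2, Cxcr2 and Ly6g were named after their values were seen. The members and lists were chosen with earlier results of these data known. Of the listed genes, 2 are not reported here. Ratios with equal library weight and the comparisons by Nos2 detection were added after the data had been seen. Columns not used numbered 0.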

Additional observations from a re-analysis of the deposited data

Results flagged for a closer look

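For each of the 8 members, levels in the 6 libraries were screened for a highest or lowest library far from the rest in the macrophage, S100a9 and Flt3 gates, which made 24 groups of values. Of these, 5 were marked, and chance marks about 1 in 20 groups. The 24 groups share libraries and barcodes, so the number marked was not set against that rate. Suffix 6 was the library in 4 of the 5. In macrophages it was far above the others for Slc7a2, at 161 CPM, and far below them for Sat1, at 557 CPM. In the S100a9 gate, which shares 566 barcodes with the macrophage gate, it was again above the others for Slc7a2, at 174 CPM. In the Flt3 gate Ass1 was at 120.0 CPM in suffix 6, where 33 barcodes were counted, and Gch1 was at 104 CPM in suffix 8, above the other libraries. The treatment behind either suffix is unknown.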

How the results depend on the processing

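Shares depend on depth. With 1000 or 6000 UMIs per barcode instead of 3000, Nos2 was detected in 5.66% or 17.3% of macrophage barcodes, and Slc7a2 in 21.7% or 43.9% of Nos2-positive and 5.79% or 17.0% of Nos2-negative ones, so that the first of these last shares stayed the higher. With at least 6 Csf1r or Adgre1 UMIs, Nos2 was detected in 10.8% of all and Slc7a2 in 9.56% of Nos2-negative barcodes. Leaving out each library gave 10.5 to 14.8% for Nos2, and 31.2 to 35.6% and 9.90 to 12.3% for Slc7a2 with and without Nos2. Counts of members called, over the same runs, were 2 to 3 for C1qa, 1 to 1 for Ly6c2, 0 to 2 for Rsad2 (0 without suffix 6, 2 without suffix 3), 0 to 2 for Mmp12 (2 without suffix 6), 0 to 0 for the S100a9 gate and 0 to 1 for the Flt3 gate (1 without suffix 3 or 8). For Rsad2, a state from at least 3 UMIs, the mean of per-barcode CPM and equal library weight each left 0. For Mmp12, a state from at least 3 UMIs (1.0% of all genes called higher), a 1.5-fold limit and equal library weight each gave 2. The S100a9 gate gave 1 (Slc7a2, higher) without lymphocyte UMIs and 1 with a 1.5-fold limit. The Flt3 gate gave 1 without lymphocyte UMIs, 1 with a 1.5-fold limit, 2 with at least 3 Flt3 UMIs and 2 with the mean of per-barcode CPM. The main rule called 10.7% of all genes in this gate in either direction. For the alternatives, the share of all genes called is given only for Mmp12 from at least 3 UMIs and Mmp12 without suffix 6. Other counts show only which calls changed, and a looser limit passes more genes of any kind. The cause of the changed counts was not tested. No paired analysis was possible because no label ties a suffix to a replicate number. For the same reason edgeR with a replicate block, DESeq2 and the fit without a filter on low counts were not run. Genes near 20 CPM, such as Slc7a1, are limited by depth in the smaller classes.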
